A study of Homo sapiens with 12 samples.

Results

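The cytosolic ribosomal protein genes are described here in FaDu cells, a human head and neck squamous cell carcinoma line. Members were the rows of the deposited expression table whose symbol is RPL, RPS, RPLP or RPSA with a number or copy letter and whose mean over the 12 libraries was at least 10 TPM (a transcript level that corrects for length and sums to the same total in every library). The symbol rule matched 82 of 58288 rows and the level limit kept 79, of which 47 encode large subunit proteins and 32 encode small subunit proteins. Just inside the limit lay RPS27L at a mean of 10.6 TPM and RPL39L at 40.2 TPM. Just outside it were 3 rows, among them RPL3L at 0.184 TPM and RPL10L, which was listed at 0. The ribosomal protein genes FAU, RACK1 and RPL36AL have symbols that the rule does not match and are given apart.

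The study asked how STING, an adaptor of the innate response to cytosolic DNA, shapes the response of tumor cells to ionizing radiation. FaDu cells carrying Cas9 and a non-targeting guide RNA (STING WT) were compared with FaDu cells in which a STING guide RNA had been used to knock the gene out (STING KO). Each was left unirradiated (0 Gy) or irradiated with 4 daily fractions of 2 Gy (RT), which gave 4 groups of 3 libraries. All groups therefore share the Cas9 background and a lentiviral guide, a single knockout line stands for the KO genotype, and the time between the last fraction and RNA collection is not given in the sources used here. Nothing in the labels says that the 3 libraries of a group came from separate cultures, so the p-values below measure the spread between these libraries only. The libraries were made from poly(A) RNA and sequenced as read pairs.

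Ribosomal proteins and ribosomal RNA build the small subunit, which reads the mRNA, and the large subunit, which joins amino acids and releases the growing chain through an exit tunnel. Their mRNAs are among the most abundant in dividing cells and most of them begin with a short run of C and T bases, the 5′ terminal oligopyrimidine (TOP) tract. This tract places their translation under the control of the kinase mTORC1 through LARP1. Because control acts largely on translation, protein output from these genes can move with little change in mRNA.

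The start sites of the genes that carry the comparisons below are printed first, from the promoter table of RefSeq on GRCh38.p14. It held an entry on a primary chromosome for 63 of the 79 genes, and the first entry listed for each gene was used. Each window holds 15 bases before the annotated start and 15 bases from it, read 5′ to 3′, and the capitals mark its longest run of C and T. RPL26, RPL19, RPS26, RPL10A and RPS18 are shown since they passed a threshold below, RPS27 as the gene of second-lowest p in unirradiated cells, RPS6 and the stalk genes as role groups, RPL11 as the partner of RPL5, and RPS27L as the member nearest the level limit.
RPL26, chr17:8383179-8383208, minus strand: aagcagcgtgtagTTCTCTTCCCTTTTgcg
RPL19, chr17:39200268-39200297, plus strand: tgggCTCTCCCCTTCgcagataatgggagg
RPS26, chr12:56041903-56041932, plus strand: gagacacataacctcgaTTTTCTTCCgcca
RPL10A, chr6:35468386-35468415, plus strand: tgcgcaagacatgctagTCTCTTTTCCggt
RPS18, chr6:33272060-33272089, plus strand: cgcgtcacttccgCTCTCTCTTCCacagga
RPS27, chr1:153990747-153990776, plus strand: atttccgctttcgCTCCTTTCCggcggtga
RPS6, chr9:19380222-19380251, minus strand: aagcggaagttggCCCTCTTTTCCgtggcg
RPLP0, chr12:120201097-120201126, minus strand: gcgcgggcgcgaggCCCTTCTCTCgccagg
RPLP1, chr15:69452803-69452832, plus strand: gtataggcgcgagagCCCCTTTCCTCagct
RPLP2, chr11:809952-809981, plus strand: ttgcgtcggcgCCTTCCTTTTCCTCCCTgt
RPL11, chr1:23691764-23691793, plus strand: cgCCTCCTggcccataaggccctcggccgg
RPS27L, chr15:63157463-63157492, minus strand: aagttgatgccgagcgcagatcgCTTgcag

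The runs at the starts of RPL26, RPS18, RPS27, RPS6 and the stalk genes covered the annotated first base, whereas in RPL19 the run lay just upstream of it and in RPS26 and RPL10A it began at position 3 of the transcript, counted from 1 at the annotated start. RPS27L, whose longest run in the window was 3 bases, had no such tract. Over the 63 genes, 42 (66.7%) began with C followed by 4 pyrimidines on the sense strand, against 4.04% of 27305 promoters in the table. When the tract was allowed to begin within 5 bases of the start, 50 of the 63 genes held it, against 21.1% of all promoters. In the whole window of 300 bases and on either strand, the letters CCGGAAG were found in 22 genes (34.9%) against 10.7% of all promoters, and TATAAA in 5 genes (7.94%) against 11.95%. A match of letters is a description of the window and not a site.

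The 79 genes together held between 10.1% and 11.1% of all TPM in each library. Their mean levels ran from 10.6 TPM for RPS27L to 4661 TPM for RPS2, with a median of 1223 TPM, and 46 of them exceeded 1000 TPM. After RPS2, a small subunit protein next to the mRNA channel, came RPL39, a small protein in the wall of the exit tunnel, at 3618 TPM, RPL7A at 3244 TPM, RPS29 at 3150 TPM and RPS18 at 2799 TPM. These 5 genes held 16.6% of the summed level. The lowest genes after RPS27L and RPL39L were RPL14 at 142 TPM, RPL17 at 301 TPM and RPL37 at 328 TPM, so that genes whose proteins are present in a single copy per ribosome differed in mRNA level by over an order of magnitude on the TPM scale. TPM of very short and of multi-copy genes rests on how reads were shared between copies. The table listed 952 rows named as pseudogenes of these genes, which together held at most 0.0689% of TPM in any library. The largest share was that of RPL13A, whose pseudogenes were listed at 12.8% of the gene's own level, followed by RPL23A at 4.40%. How far reads shared with these copies affect the levels of both genes was not measured.

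Among the whole series, all 10 squamous epithelial marker genes had a mean of at least 1 TPM in every group, summing to 7554 to 10360 TPM over the libraries, and 4 of 11 markers of other cell types did, summing to 21.1 to 34.2 TPM with the highest sums after RT. Libraries of the same group correlated with r between 0.983 and 0.987 across genes, which are not independent replicates. TMEM173, which encodes STING, was listed at 21.1 to 26.1 TPM in the 6 WT libraries and at 5.18 to 7.41 TPM in the 6 KO libraries (log2 fold change -1.77 ± 0.11 (SE) at 0 Gy and -1.60 ± 0.11 after RT, limma adjusted p = 1.2e-05 and 2e-05), and residual mRNA does not show residual protein. TPM carries no depth, so no counting interval can be given and precision comes from the 3 libraries of each group.

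**Figure D1:**
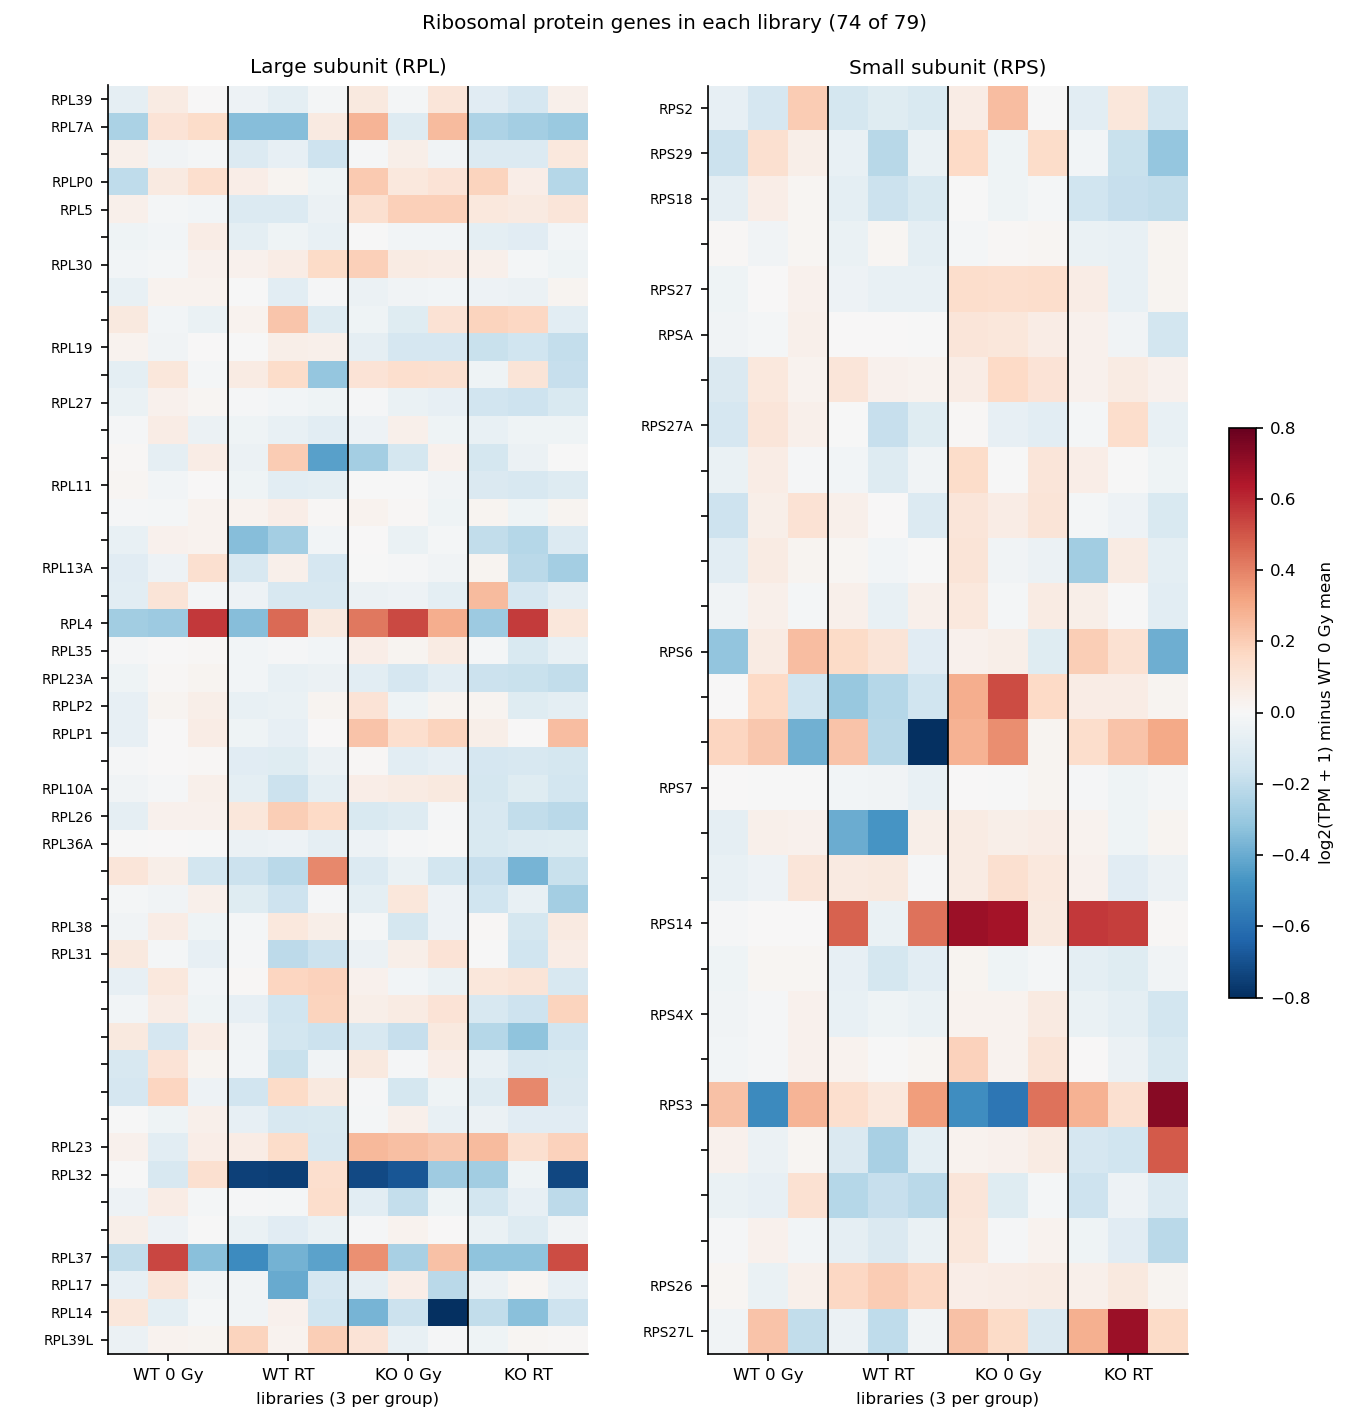
Each row is 1 of 74 of the 79 genes, ordered by mean TPM within its subunit, and each column 1 of the 12 libraries, with the genes named in the text labelled. Color gives log2(TPM + 1) minus the mean of the 3 unirradiated WT libraries; most rows are pale, and RPS3, RPL4, RPL37, RPL32 and RPS14 show strong color that changes between libraries of 1 group.

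When the 79 genes were summed, they took 10.32%, 10.82% and 10.83% of TPM in WT cells at 0 Gy and 11.06%, 10.86% and 10.95% in KO cells at 0 Gy. After RT the sums were 10.19%, 10.16% and 10.32% for WT and at 10.29%, 10.35% and 10.10% for KO cells. All 3 irradiated KO libraries lay below all 3 unirradiated KO libraries (10.25% ± 0.132 against 10.96% ± 0.0970, SD, n = 3), whereas in WT cells the groups overlapped through the lowest unirradiated library (10.22% ± 0.0851 against 10.65% ± 0.294, SD, n = 3). Because TPM add up to a fixed total, the share of genes encoded in mitochondrial DNA, often read as a sign of RNA quality, was set beside these sums. It was 8.90%, 10.32% and 10.14% in unirradiated and 11.18%, 10.76% and 11.93% in irradiated KO cells, higher after RT without overlap, and 9.30% to 10.94% and 10.24% to 11.25% in WT cells, where the groups overlapped. As a percent of the TPM outside these genes, a denominator chosen after seeing the data, the 79 genes took 12.15% ± 0.0368 in unirradiated and 11.55% ± 0.0737 in irradiated KO cells (SD, n = 3), still without overlap, and 11.85% ± 0.232 and 11.44% ± 0.164 in WT cells, still with overlap. For comparison, the 78 nuclear genes of the mitochondrial ribosome held 0.680% ± 0.0130 of TPM in unirradiated WT cells and 0.694% ± 0.00590 after RT, and 0.665% ± 0.0225 and 0.669% ± 0.00447 in KO cells.

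Each gene was then tested with limma on log2(TPM + 1), fitted over the 15973 genes with at least 1 TPM in at least 3 libraries, which included all 79 ribosomal protein genes. An adjusted p (Benjamini-Hochberg over all genes tested) under 0.05 was the threshold. The median standard error of a log2 fold change was 0.062 for the ribosomal protein genes and 0.12 for all genes. The comparisons share groups with each other, so agreement between them is not independent.

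The first comparison asked how the genes differ between KO and WT cells without irradiation. Of the 79 genes 1 passed the threshold (1.73% of all genes tested did, 0.463% of them as higher in KO cells), and it was RPL5, which was higher in KO cells. The median log2 fold change was 0.012 for the 79 genes and -0.021 for all genes. Among small subunit genes 7 of 32 had a log2 fold change below 0, against 27 of 47 large subunit genes and 55.6% of all genes, with medians of 0.059 and -0.012, and under quantile normalization the median of all 79 turned to -0.0053. The libraries of KO and WT did not overlap for 18 genes (20.6% of all genes tested). Genes with positive differences that did not pass the test were RPS27 at 0.14 ± 0.036 (SE) and RPL23 at 0.24 ± 0.069 (adjusted p = 0.1 and 0.14), and RPL19 at -0.11 ± 0.033 was the lowest p among those below 0 (adjusted p = 0.14).

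RPL5, which with RPL11 and the smallest rRNA of the large subunit forms a particle that can bind the p53 regulator MDM2, was listed at 2508, 2409 and 2400 TPM in unirradiated WT cells and at 2661, 2788 and 2782 TPM in unirradiated KO cells. After RT its values were 2262, 2259 and 2362 TPM in WT cells and 2583, 2568 and 2605 TPM in KO cells. Every KO library was above every WT library at the same dose. The log2 difference was 0.17 ± 0.034 (SE) at 0 Gy (limma adjusted p = 0.035) and 0.17 ± 0.034 after RT (adjusted p = 0.022), a fold of 1.12 and 1.13. The call at 0 Gy was lost in 8 of the 12 fits that left out 1 library (adjusted p from 0.055 to 0.14), namely those without replicate 2 or 3 of either unirradiated group, and replicate 1 or 2 of either irradiated group. The call after RT was lost in 5 (0.058 to 0.091), without replicate 1 or 2 of irradiated WT or any replicate of irradiated KO. RPL11, the partner of RPL5, was among the tightest genes of the set and gave log2 differences of -0.012 ± 0.029 and -0.049 ± 0.029 (adjusted p = 0.9 and 0.44), from 1555 to 1598 TPM in unirradiated WT cells and 1548 to 1576 TPM in unirradiated KO cells. The 2 genes of this particle therefore gave different values in KO cells, a difference between genes that was not tested.

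After RT, KO cells differed from WT cells in 4 of 79 genes (3.59% of all genes tested passed): RPL26, RPL19 and RPL23A were lower in KO cells (3 of 79, beside 2.66% of all genes) and RPL5 was higher (1 of 79, beside 0.927%). The median over the 79 genes was -0.016, beside -0.017 for all genes. With 44 genes below 0 (54.0% of all genes were) and 18 whose libraries did not overlap (24.1% of all genes), the set as a whole lay near the background of all genes. The subunits lay closer together than at 0 Gy, with 15 of 32 small and 29 of 47 large subunit genes below 0 (medians 0.013 and -0.021). A difference between the subunits was not tested at either dose. The 3 genes that were lower are in the list of 7 proteins around the exit of the peptide tunnel, where chaperones and the signal recognition particle dock. This made 3 of 7, beside 2.66% of all genes. All 3 also lie on chromosome 17, where the other tested genes had a median of -0.095 after RT. The list was chosen with earlier results of these data known, and a link to the tunnel exit was not tested. The other 4 of that list, RPL17, RPL31, RPL35 and RPL39, gave log2 differences between -0.048 and 0.16 and did not pass.

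RPL26, a tunnel exit protein known as a target of UFMylation on ribosomes at the endoplasmic reticulum, was listed at 906, 972 and 975 TPM in unirradiated WT cells and at 875, 885 and 943 TPM in unirradiated KO cells. After RT it was at 1012, 1089 and 1060 TPM in WT cells and at 869, 827 and 819 TPM in KO cells. The groups overlapped at 0 Gy, and after RT every WT library was above every KO library. The difference after RT was -0.33 ± 0.047 (SE) on the log2 scale, a fold of 0.796 (limma adjusted p = 0.0035), against -0.078 ± 0.047 at 0 Gy (adjusted p = 0.51). The change from 0 Gy to RT was 0.15 ± 0.047 in WT cells (adjusted p = 0.13) and -0.10 ± 0.047 in KO cells (adjusted p = 0.28), and the difference between these changes, -0.25 with a 95% interval from -0.40 to -0.10, did not pass the threshold (adjusted p = 0.62).

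RPL19, which contacts both subunits, was listed at 1852, 1918 and 1907 TPM in WT cells after RT and at 1640, 1660 and 1624 TPM in KO cells after RT. At 0 Gy the values were 1894, 1821 and 1857 TPM in WT cells and 1769, 1688 and 1695 TPM in KO cells. The KO libraries were the lower ones at both doses, without overlap. The log2 difference was -0.21 ± 0.033 (SE) after RT (limma adjusted p = 0.0065) and -0.11 ± 0.033 at 0 Gy (adjusted p = 0.14).

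RPL23A, a docking site for nascent chain factors, was listed at 1272, 1240 and 1251 TPM in WT cells after RT and, in KO cells after RT, at 1145, 1140 and 1127 TPM. At 0 Gy it was at 1264, 1303 and 1310 TPM in WT cells and at 1219, 1180 and 1219 TPM in KO cells. Again no KO library reached a WT library at the same dose. The log2 difference was -0.14 ± 0.030 (SE) after RT (limma adjusted p = 0.033) and -0.10 ± 0.030 at 0 Gy (adjusted p = 0.16), and the table lists 91 pseudogenes of this gene. The call was lost in 7 of 12 fits that left out 1 library (adjusted p from 0.052 to 0.12), without any 1 of the irradiated libraries or replicate 3 of unirradiated KO.

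**Figure D2:**
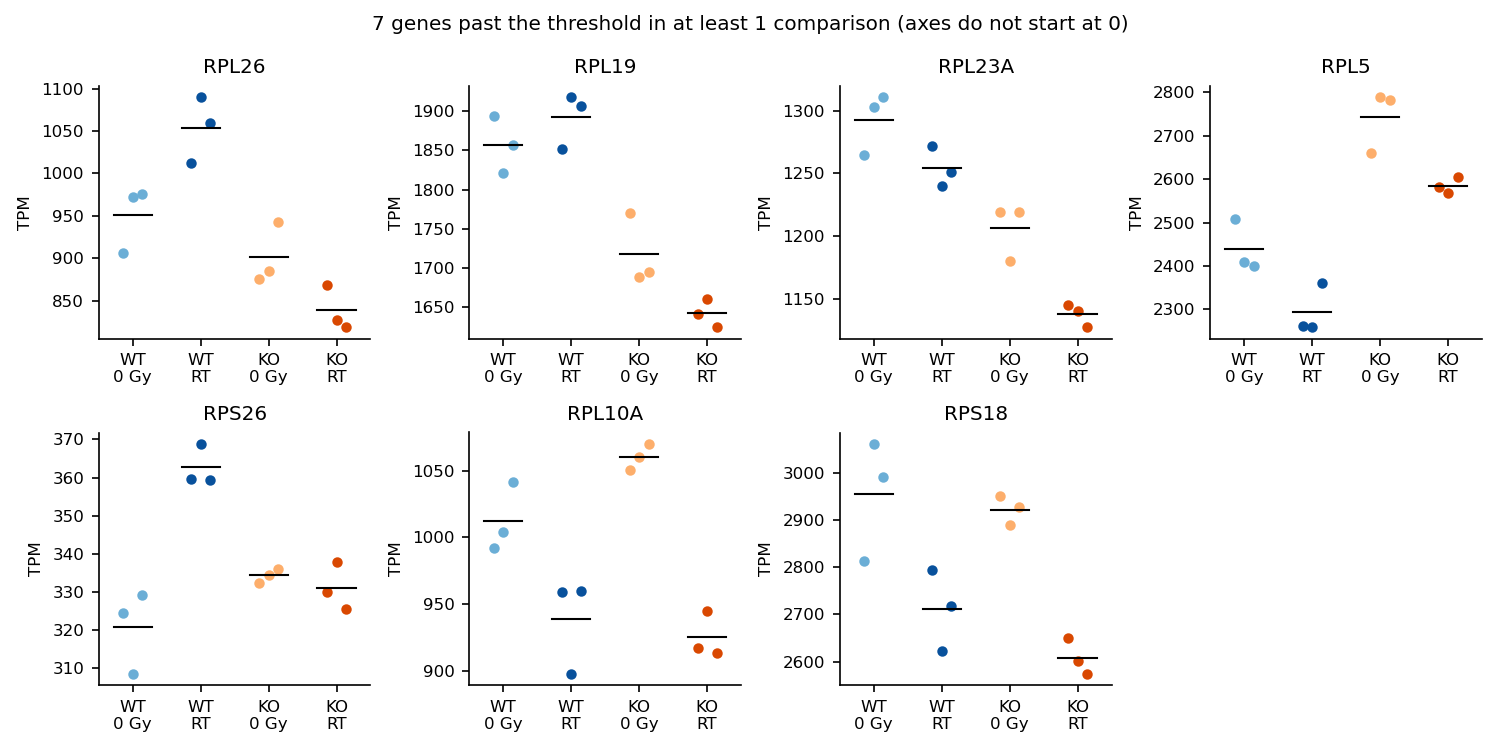
TPM of 7 genes that passed the threshold in at least 1 comparison, with 1 point per library and a bar at the group mean; vertical axes do not start at 0. The KO libraries of RPL5 lie above and those of RPL19 and RPL23A below the WT libraries of the same dose, and RPL26 separates only after RT.

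The position of these genes was examined after their values were seen. All 4 genes that differed by genotype lie on chromosome 1 or chromosome 17: RPL5 at chr1:92831983-92841924, and RPL26 at chr17:8377516-8383250, RPL23A at chr17:28719393-28724359 and RPL19 at chr17:39200283-39204732 (GENCODE 29, GRCh38). The medians of the other genes on these chromosomes had the same direction, with many single genes going the other way. Over 1006 tested genes on chromosome 17 that are not ribosomal protein genes, the median log2 difference between KO and WT was -0.087 at 0 Gy and -0.095 after RT, the lowest of the 23 chromosomes in both cases, and 706 and 696 of them were below 0. Over 1587 such genes on chromosome 1 it was 0.042 and 0.034, which ranked 2 and 3 from the top, and 637 and 678 of them were below 0. In single libraries the median deviation of chromosome 17 from the unirradiated WT mean ran from -0.096 to -0.051 in the 6 KO libraries and from -0.013 to 0.041 in the 6 WT libraries.

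Within 5 Mb on either side of each gene, the median difference of the neighbours after RT was -0.14 around RPL19 (187 genes), -0.10 around RPL26 (151 genes), -0.10 around RPL23A (83 genes) and 0.11 around RPL5 (60 genes). Beside these, the genes themselves stood at -0.21, -0.33, -0.14 and 0.17. When each chromosome was centred on the median of its other genes in each library, RPL26 still passed after RT at -0.23 ± 0.050 (SE, limma adjusted p = 0.037). RPL19 at -0.10 ± 0.035 (adjusted p = 0.15), RPL23A at -0.040 ± 0.031 (adjusted p = 0.57) and RPL5 at 0.14 ± 0.038 (adjusted p = 0.083) did not, nor did RPL5 at 0 Gy (0.13 ± 0.038, adjusted p = 0.15). Of the other ribosomal protein genes on chromosome 17, RPL27 gave -0.13 ± 0.034 and RPL38 -0.057 ± 0.059 after RT, and RPL23 gave 0.16 ± 0.069, so that 5 of the 6 genes on this chromosome were below 0 at each dose.

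**Figure D3:**
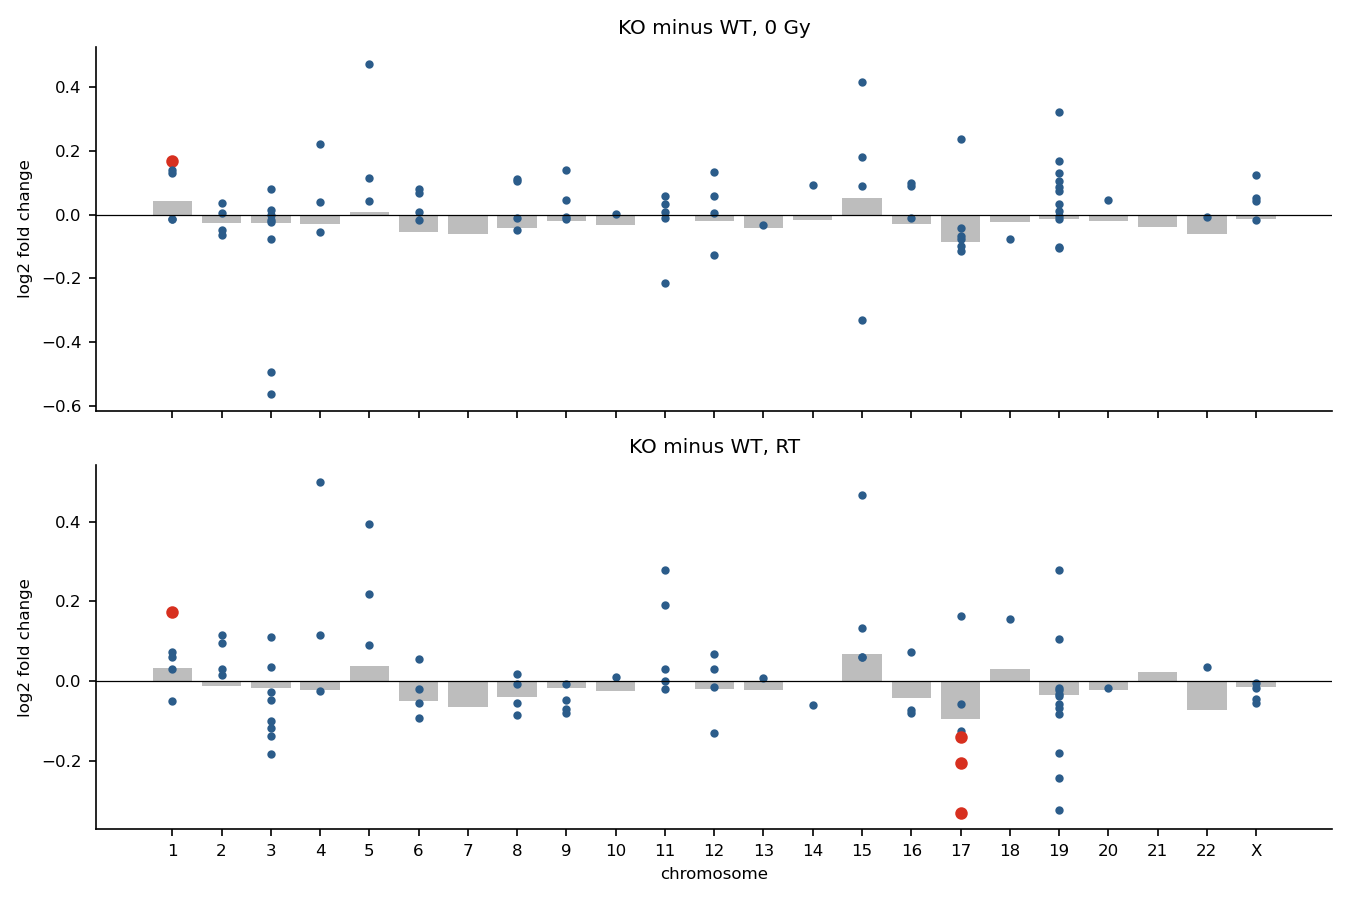
Log2 difference between KO and WT cells by chromosome at 0 Gy (upper) and after RT (lower). Gray bars are medians of all tested genes other than the 79, blue points single ribosomal protein genes and red points those past the threshold; the bar of chromosome 17 is the lowest in both panels and all red points lie on chromosomes 1 and 17.

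Radiation was then compared with 0 Gy within each genotype. In WT cells 1 of 79 genes passed (3.74% of all genes tested, 2.24% as higher), RPS26, which was higher after RT. The set nevertheless lay low: 56 of 79 genes (70.9%) had a log2 change below 0 against 46.0% of all genes, the median was -0.050 beside 0.017 for all genes, and 19 genes had all irradiated libraries below all unirradiated ones (10.1% of all genes did). Of the large subunit genes 34 of 47 were below 0, and of the small subunit genes 22 of 32.

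RPS26, a small subunit protein beside the channel through which mRNA leaves, was listed at 324, 309 and 329 TPM in unirradiated WT cells and at 360, 369 and 359 TPM in irradiated WT cells. In KO cells it was at 332, 334 and 336 TPM without irradiation and at 330, 338 and 325 TPM after RT. The irradiated WT libraries were the 3 highest of all 12. The log2 change was 0.18 ± 0.036 (SE) in WT cells (limma adjusted p = 0.025) and -0.014 ± 0.036 in KO cells (adjusted p = 0.88). The difference between the changes was -0.19 with a 95% interval from -0.30 to -0.079 (adjusted p = 0.62). The call in WT cells was lost in 5 of 12 fits that left out 1 library (adjusted p from 0.061 to 0.089), without replicate 1 or 2 of unirradiated or any replicate of irradiated WT.

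In KO cells 3 of 79 genes passed (3.69% of all genes tested, 1.7% as lower), all lower after RT, RPL10A and RPS18 among them. Here 62 genes (78.5%) were below 0 against 45.7% of all genes, with a median of -0.086 beside 0.019, and 30 genes had all irradiated libraries below all unirradiated ones (10.6% of all genes did) while none had them all above. Such a count depends on the spread within groups. With a median SE of 0.062 beside 0.12 for all genes, smaller changes separate the libraries of the 79 genes, and this holds for the count in WT cells too. Large and small subunit genes gave 36 of 47 and 26 of 32 below 0. Among the 30 were RPS27, RPS4X, RPL11 and RPL36A, whose log2 changes lay between -0.14 and -0.091 and did not pass the test. The 42 genes with a TOP tract at the annotated start had a median of -0.082 in KO cells and -0.042 in WT cells, and the 21 with an entry but no such tract had medians of -0.065 and -0.080, so that the order of the groups turned between genotypes.

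RPL10A, a protein of the mobile stalk at which spent tRNA leaves, was listed at 1050, 1061 and 1070 TPM in unirradiated KO cells and at 917, 945 and 913 TPM after RT, a log2 change of -0.20 ± 0.037 (SE, limma adjusted p = 0.019). In WT cells it was at 992, 1004 and 1041 TPM and, after RT, at 959, 898 and 960 TPM (-0.11 ± 0.037, adjusted p = 0.15). Irradiated libraries were the lower ones in both genotypes without overlap. The call in KO cells was lost without any replicate of unirradiated KO or without replicate 1 or 3 of irradiated KO (5 of 12 fits, adjusted p from 0.05 to 0.068).

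RPS18, a protein of the small subunit head, was listed at 2951, 2889 and 2928 TPM in unirradiated KO cells and at 2649, 2602 and 2575 TPM after RT, a log2 change of -0.16 ± 0.039 (SE, limma adjusted p = 0.047). In WT cells it was at 2813, 3062 and 2991 TPM and, after RT, at 2795, 2622 and 2717 TPM (-0.12 ± 0.039, adjusted p = 0.12). Without irradiation the KO libraries lay within the range of the WT libraries. The call was lost in 10 of 12 fits that left out 1 library (adjusted p from 0.057 to 0.13) and was kept only without replicate 1 or 2 of unirradiated WT.

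Whether radiation acted differently in the 2 genotypes was tested as the difference between the changes. No ribosomal protein gene passed in limma (0 of 79; 0.0188% of all genes tested did), 5 of 79 had an unadjusted p under 0.05 (6.61% of all genes), and the genes of lowest p were RPS26, RPL26 and RPL30 (adjusted p = 0.62, 0.62 and 0.71). Wide differences were those of RPL32 at 0.67 and RPS3 at 0.40 upward and of RPS14 at -0.38 and RPL4 at -0.35 downward, with adjusted p from 0.78 to 0.91. In each of the 4 comparisons between groups, 70 to 72 of the 79 genes had a 95% interval that lay within a 1.5-fold change either way. Over all genes tested this held for 68.9% to 71.1%, at a median SE of 0.12 against 0.062 for the 79 genes.

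**Figure D4:**
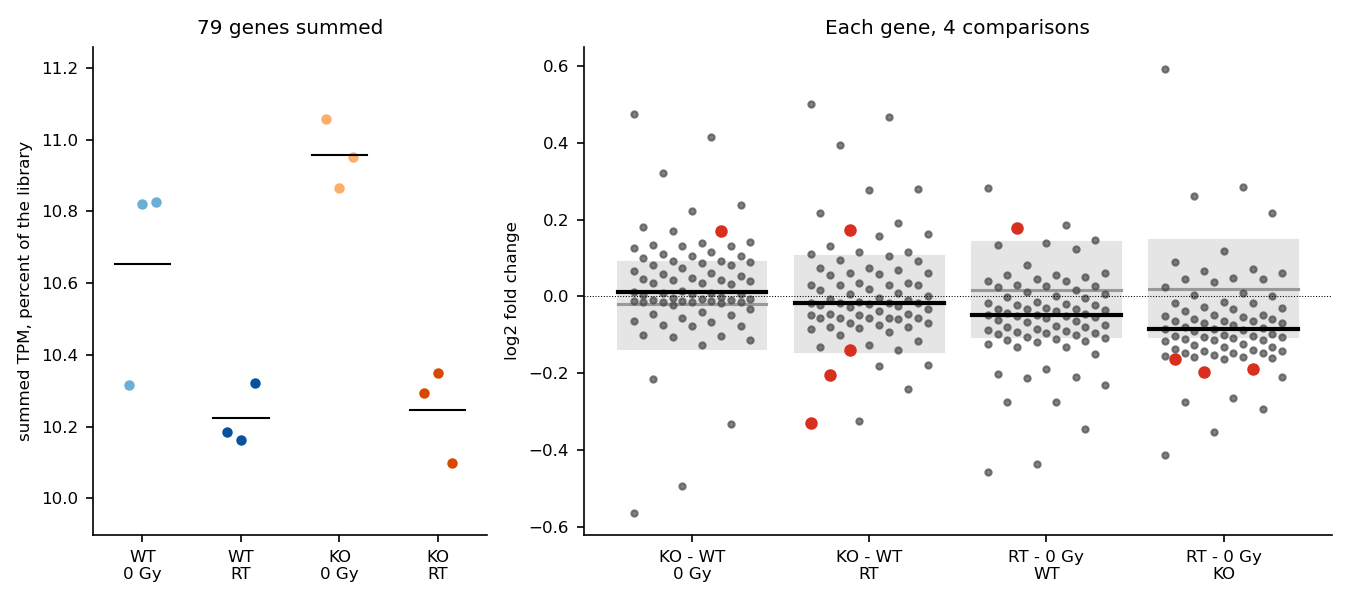
Left, summed TPM of the 79 genes as a percent of each library, with bars at group means (axis not from 0). Right, log2 fold change of each gene in the 4 comparisons, with black bars at the median of the 79, gray bars and boxes at the median and quartiles of all genes, and red points past the threshold; the black bar lies below the gray one in both radiation comparisons.

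The stalk proteins, which recruit elongation factors, gave no call: RPLP0 ran from 2088 to 2830 TPM over the 12 libraries, RPLP1 from 1006 to 1251 TPM and RPLP2 from 1062 to 1229 TPM. RPLP1 had the lowest p of the 3, with 1006, 1055 and 1096 TPM in unirradiated WT cells and 1233, 1157 and 1190 TPM in unirradiated KO cells (log2 difference 0.18 ± 0.062 (SE), limma adjusted p = 0.21). RPS6, whose phosphorylation by S6 kinase is a common readout of mTORC1, ranged from 1138 to 1778 TPM with log2 differences between -0.079 and 0.055 (SE 0.17). RPS27A, made as a fusion with ubiquitin, ranged from 1718 to 2158 TPM and gave no call either.

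Copies of ribosomal protein genes expressed at low level gave no call. RPS27L, a copy of RPS27 known as a p53 target, was listed at 9.53, 11.6 and 8.38 TPM in unirradiated WT cells, 9.40, 8.36 and 9.55 TPM in irradiated WT cells, 11.6, 11.0 and 8.91 TPM in unirradiated KO cells and 12.1, 16.3 and 11.0 TPM in irradiated KO cells. The irradiated KO libraries lay above the irradiated WT libraries, at a log2 difference of 0.47 ± 0.15 (SE) that did not pass (limma adjusted p = 0.14). RPL39L stayed between 37.5 and 44.9 TPM. Outside the rule, RPL26L1 was at 77.1 to 101 TPM with a log2 change of 0.27 ± 0.068 after RT in WT cells (adjusted p = 0.06), and RACK1 and RPL36AL gave no call, nor did FAU, whose libraries ranged from 165 to 434 TPM.

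The spread between libraries of a group differed widely among the genes. The within-group SD of log2(TPM + 1) was 0.014 for RPS7, 0.016 for RPL36A and 0.020 for RPL11, and 0.40 for RPS3, 0.39 for RPL4 and 0.38 for RPL37, beside a median of 0.078. RPS7 lay between 1184 and 1253 TPM in all 12 libraries. Between the highest and lowest library, 16 of the 79 genes differed by at least 1.5-fold and 32 by less than 1.2-fold. The shares of all genes at these folds are not given here. By the median SE of a log2 fold change, 0.062 beside 0.12, the 79 genes were tighter than all genes.

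RPS3, which guards the entry of the mRNA channel, was listed at 624, 371 and 639 TPM in unirradiated WT cells, 582, 562 and 669 TPM in irradiated WT cells, 375, 354 and 715 TPM in unirradiated KO cells and 641, 579 and 876 TPM in irradiated KO cells. It had 3 libraries between 354 and 375 TPM, 1 of unirradiated WT and 2 of unirradiated KO cells, and 9 between 562 and 876 TPM. RPL4, which lines the exit tunnel, had 4 libraries between 925 and 969 TPM and 8 between 1236 and 1739 TPM, with low libraries in 3 of the 4 groups.

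RPL37 (238 to 293 TPM in 8 libraries, 396 to 488 TPM in 4), RPL32 (272 to 285 TPM in 5, 377 to 503 TPM in 7) and RPS14 (650 to 712 TPM in 6, 915 to 1086 TPM in 6) were divided in the same way. Each division was made at the widest gap among the sorted values, which any gene has, so it does not show separate levels. Wide ranges also occurred outside the set, as for TPT1 at 536 to 1307 TPM and MYC at 5.22 to 131 TPM. The share of all genes with such ranges is not given here. The libraries on the high side were not the same ones from gene to gene: the highest library was an unirradiated WT one for RPL4, an irradiated KO one for RPS3 and an unirradiated KO one for RPS14. Fold changes of these genes included RPL32 at -0.56 ± 0.25 (SE) and RPS14 at 0.47 ± 0.20 in unirradiated KO against WT cells, RPL37 at -0.44 ± 0.27 after RT in WT cells and RPS3 at 0.59 ± 0.29 after RT in KO cells, and none of these passed (limma adjusted p from 0.31 to 0.45).

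**Figure D5:**
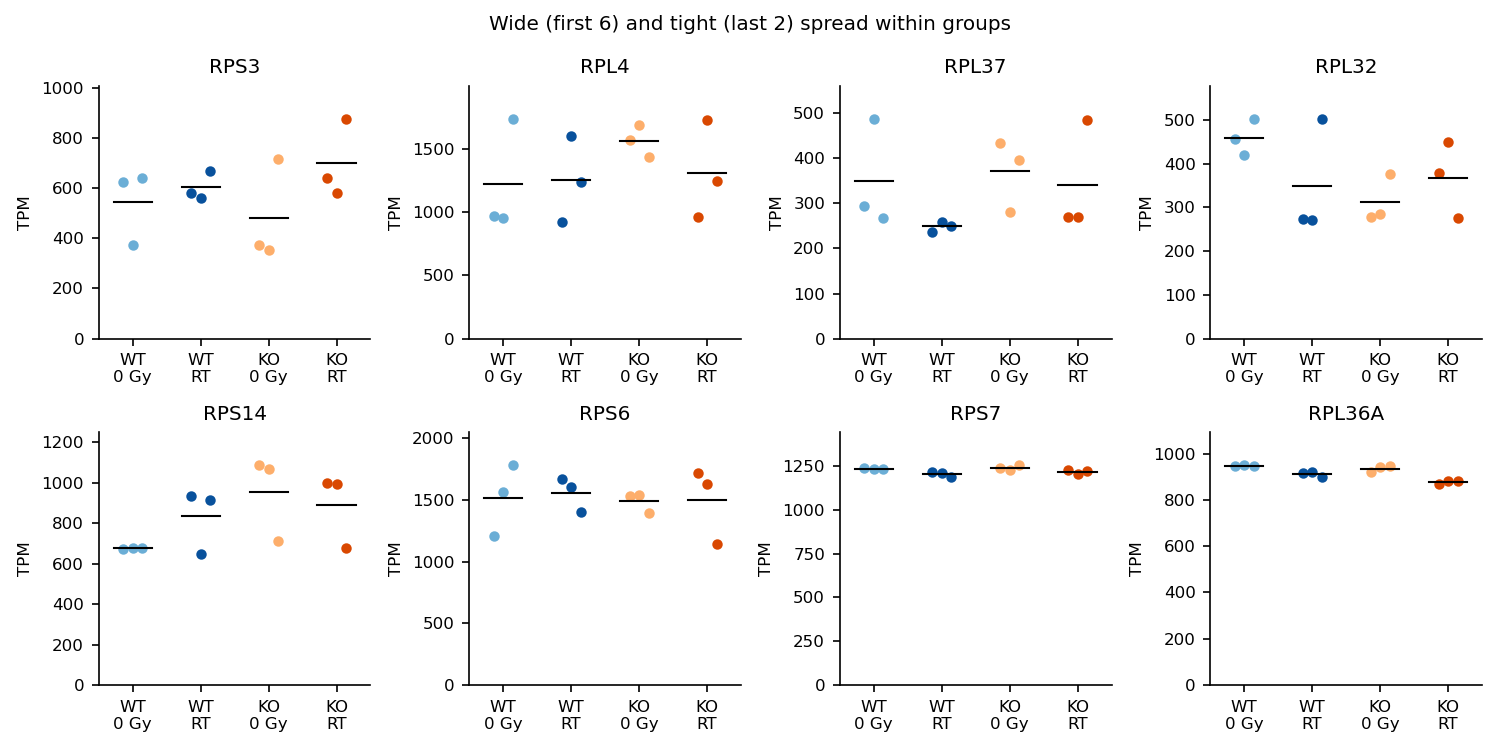
TPM per library of 6 genes with a wide and 2 with a tight spread within groups, with bars at group means and axes from 0. RPS3, RPL4, RPL37 and RPL32 have libraries far apart within single groups, whereas RPS7 and RPL36A are nearly level over all 12.

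The pathway around the ribosome was read from lists of other genes. Of 51 rows for ribosome assembly factors, 45 were below 0 in KO against WT cells at 0 Gy and 41 after RT (medians -0.087 and -0.13). Of all genes tested, 55.6% and 54% were below 0. Among the 51 rows 1 and 5 passed, all lower, beside 1.73% and 3.59% of all genes in either direction. At 0 Gy this was DDX21 at -0.21 ± 0.035 (SE, limma adjusted p = 0.013). After RT they were DDX21 at -0.25, RRS1 at -0.36, MRTO4 at -0.25, WDR43 at -0.22 and PES1 at -0.21. With radiation, 43 and 40 of the 51 rows had a log2 change above 0 in WT and KO cells (medians 0.11 and 0.076). The rows below 0 were 8 and 11, against 46% and 45.7% of all genes. In each genotype 1 row passed, beside 3.74% and 3.69% of all genes. These were PES1 at 0.24 ± 0.050 in WT cells (adjusted p = 0.029) and SBDS, which releases the joining inhibitor from the large subunit, at 0.32 ± 0.048 in KO cells (adjusted p = 0.0054).

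Of the 78 genes of the mitochondrial ribosome, 24 were below 0 after RT in WT cells (median 0.064) and 36 in KO cells (median 0.019), and MRPL54 passed in both, at -0.22 and -0.27. Beside this and the lists that follow, 46% and 45.7% of all genes were below 0 after RT in WT and KO cells, and 3.74% and 3.69% passed. The count of the mitochondrial ribosome below 0 in KO cells lay near the share of all genes. Of 22 elongation factors and other TOP mRNAs, 15 and 14 were below 0 after RT (medians -0.071 and -0.026), with EIF4B passing in WT cells at -0.19 ± 0.047. None of 15 RNA polymerase I genes passed in any comparison, with a median of 0.085 after RT in WT cells and -0.019 in KO cells. Of 19 genes of mTOR and TOP control, DDIT4, an inhibitor of mTORC1, passed: it was at 283, 289 and 301 TPM in unirradiated and 200, 193 and 224 TPM in irradiated WT cells (log2 change -0.50 ± 0.060 (SE), limma adjusted p = 0.0016), and at 282, 273 and 302 TPM and 183, 181 and 174 TPM in KO cells (-0.67 ± 0.060, adjusted p = 0.00035).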

How the data were processed

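Poly(A) RNA of 12 FaDu libraries was sequenced, and the authors deposited 1 table of TPM values per gene and library. The submitters' processing notes name HISAT2, StringTie, DESeq2 and hg38, with no versions; read counts were not used here and depth is unknown. Library columns were matched to labels by genotype, dose and replicate number.

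From the TPM, log2(TPM + 1) was computed, genes with at least 1 TPM in at least 3 libraries were kept, and 4 group means were fitted with limma 3.58.1 (eBayes with trend, R 4.3.3, 8 residual degrees of freedom). The 5 contrasts were adjusted by Benjamini-Hochberg over 15973 genes. The procedure was tested on simulated data. TPM are relative, so a change in the abundant genes shifts all others, and fold changes on this scale slightly understate those of low genes. Positions came from GENCODE 29, matched by identifier without its version for all 79 genes (60 with the same version).

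The members and gene lists were chosen with earlier results of these data known. Named genes were those past the threshold, the 3 largest changes each way, the highest and lowest levels and spreads, members of role groups, and the lowest p of other lists. Alternatives were another pseudocount (0.1), other filters, scalings and variance models, the replicate number as a block, each library left out, and members summed with their pseudogenes. Centring each chromosome and summing members without mitochondrially encoded genes in the total were chosen after seeing the data. Some genes of the set entered the counts but are not reported here by name.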

Additional observations from a re-analysis of the deposited data

Results flagged for a closer look

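Both results below were picked because the groups moved in opposite directions in the 2 conditions compared, without overlap between libraries. The share of all genes with this pattern is not given here. Neither result passed the test of the difference itself over all genes. An unadjusted limma p under 0.05 for that difference was found in 6.33% of the 79 genes and in 6.61% of all genes.

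RPL26 was higher after RT than at 0 Gy in every WT library (0.15 ± 0.047 (SE) on the log2 scale) and lower after RT in every KO library (-0.10 ± 0.047). The difference between the changes was -0.25 (limma adjusted p = 0.62, unadjusted p = 0.0035).

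RPS26 was higher in every KO library than in every WT library at 0 Gy (0.060 ± 0.036 (SE) on the log2 scale) and lower in every KO library after RT (-0.13 ± 0.036). The difference between these was -0.19 (limma adjusted p = 0.62, unadjusted p = 0.0033).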

How the results depend on the processing

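RPL26 in irradiated KO against WT cells passed under all 23 alternatives (limma adjusted p from 0.00055 to 0.037) and RPL19 in 20 of 23 (0.0043 to 0.15). The other calls were lost more often: RPL5 at 0 Gy in 14 of 23 (0.023 to 0.26) and after RT in 11 (0.014 to 0.16), RPL23A in 13 (0.01 to 0.57), RPS26 in 9 (0.018 to 0.13), RPL10A in 9 (0.011 to 0.13) and RPS18 in 15 (0.02 to 0.23). No gene called in the main fit changed direction.

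The counts of genes called were 1, 4, 1 and 3 for KO against WT at 0 Gy and after RT and for RT in WT and in KO cells. They were 0, 1 and 0 without a filter (KO at 0 Gy, KO after RT and RT in KO), 5 with a mean of at least 5 TPM, 6 with median-of-ratios factors and 5 with TPM rescaled over the other genes (all for RT in KO), 2 and 0 under quantile normalization (RT in WT and in KO), 0, 2, 0 and 0 with eBayes without a trend, 0, 1, 0 and 0 with only the libraries compared, and 0, 1, 2 and 5 with each chromosome centred. An equal count was not always the same gene. Between KO and WT at 0 Gy, the 1 gene called was higher in the main fit and lower under quantile normalization. For RT in WT cells, the 1 gene called was higher in the main fit and lower with median-of-ratios factors. Leaving out each library in turn gave 0 to 1, 2 to 4, 0 to 2, 0 to 3 and, for the interaction, 0 to 0 genes. KO against WT called 0 genes at 0 Gy without replicate 2 or 3 of unirradiated or 1 or 2 of irradiated WT or KO, and 2 after RT without replicate 1 or 2 of irradiated WT or any of irradiated KO. Radiation in KO cells called 0 genes without replicate 1 or 3 of unirradiated KO or replicate 3 of irradiated KO, and RT in WT cells called 0 without replicate 1 or 2 of unirradiated WT or replicate 1 or 2 of irradiated WT. The cause was not tested.

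With the replicate number as a block, the counts were 0, 2, 0 and 2. Libraries of the same number in different groups had deviations correlated between -0.060 and 0.064. For libraries of different numbers the range was -0.070 to 0.057. No large deviation shared by number was seen, and whether the numbers pair cultures cannot be told from these values.

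The median change of the 79 genes stayed below 0 in both radiation comparisons under every alternative run (-0.073 to -0.024 in WT and -0.12 to -0.056 in KO cells), nearest to 0 under quantile normalization. The median between KO and WT changed sign at 0 Gy under quantile normalization (-0.0053) and after RT with median-of-ratios factors (0.0036) and chromosome centring (0.0092). Precision is limited by 3 libraries per group, and depth is not known from TPM.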
